A study of Mus musculus with 6 samples.

Results

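The Notch genes described here are 3 receptors (Notch1, Notch2 and Notch3), 3 ligands (Jag1, Jag2 and Dll4) and 4 targets of the Hes and Hey family (Hes1, Hey1, Hey2 and Heyl). They were chosen by name for their place in the pathway, and all 10 were found among the 55850 gene rows of the deposited table. Bulk RNA of whole mouse testis was sequenced in 3 untreated samples labelled wild type (WT) and 3 untreated samples labelled conditional knockout (cKO), in which the series title places the loss of the splicing factor SRSF2 in Sertoli cells. The sources used here name neither the Cre driver, the deleted part of the gene, the alleles of the WT mice nor their age. No label ties the samples to separate animals, and the p-values therefore describe the spread among these 6 samples, part of which may be technical.

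Notch signalling passes between touching cells. A ligand on one cell pulls on the receptor of its neighbour, the receptor is cut by ADAM proteases and gamma-secretase, and the freed inner part joins RBPJ and Mastermind proteins on DNA to switch on genes such as Hes1 and Hey1, which encode repressors. In the testis, JAG1 on germ cells is known to activate Notch in Sertoli cells, where HES and HEY repressors restrain Gdnf, the growth factor of spermatogonial stem cells, and Cyp26b1, an enzyme that breaks down retinoic acid. Vessels use the same genes, with DLL4 and NOTCH4 known from endothelium and NOTCH3 and HEYL from the mural cells around it. Whole-testis RNA does not assign a transcript to any of these cells, and fewer cells of a type and less RNA per cell cannot be told apart.

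Hey2 is shown by its promoter because it was the target gene that lay higher in cKO libraries as measured, and because its promoter holds matches to the RBPJ motif. The window covers 250 bases before and 50 after the start in RefSeq on GRCm38.p6, chr10:30842734-30843033, minus strand, with matches to GTGGGAA on either strand in capitals.
Hey2: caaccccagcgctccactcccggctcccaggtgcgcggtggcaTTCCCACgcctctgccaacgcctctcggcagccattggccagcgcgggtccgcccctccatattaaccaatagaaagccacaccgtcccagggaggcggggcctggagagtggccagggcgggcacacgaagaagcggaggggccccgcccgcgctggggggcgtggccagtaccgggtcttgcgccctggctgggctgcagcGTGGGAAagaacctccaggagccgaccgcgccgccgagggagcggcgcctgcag
The 2 matches begin at bases 44 (reverse strand) and 247 (forward strand) of the window. RefSeq promoters were matched for 7 of the 10 members, the others being Hes1, Hey1 and Heyl. GTGGGAA stood in 6.38% of the 32851 promoter windows, and its shorter core TGGGAA, which every GTGGGAA contains, in 25.6%. In the windows of Notch1, Notch2, Notch3, Jag1, Jag2 and Dll4 these letters had 0 matches on either strand, which says nothing of sites elsewhere.

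Libraries were of even depth, from 16070287 to 17281330 recovered reads. Srsf2, the targeted gene, was at 127, 96.7 and 102 FPKM (reads scaled to gene length and library total) in WT replicates 1 to 3 and 74.0, 87.3 and 87.3 FPKM in cKO replicates 1 to 3 (limma adjusted p = 0.384). Markers of Sertoli cells, germ cells, Leydig cells, endothelium, mural and myoid cells, macrophages and blood were all above 0 in every library. Reads of 18S ribosomal RNA made up 1.58 to 2.09% of WT and 0.727 to 0.835% of cKO libraries. At an adjusted p under 0.05, 1 gene was higher (0.00702%) and 1 lower (0.00702%) in cKO, together 0.014% of the 14238 genes tested.

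Against that background 0 of the 10 members passed in either direction. All 10 had a mean of at least 1 FPKM and were tested. At an unadjusted p under 0.05 the count of members was also 0, where 12.3% of all tested genes lay under it. With 1 library left out the count was 0 or 1. Of all tested genes, 3.35 to 10.3% were then lower and 1.65 to 7.43% higher. With limma voom on recovered reads 0 members passed as well, adjusted or unadjusted. Log2 differences ran from -0.30 to 0.28, with a median of -0.13 beside 0.00 for all tested genes, and 4 of the 10 were positive. The groups did not overlap for 2 members, Hey1 and Hey2, in opposite directions, where 18.6% of all tested genes had groups apart, 8.69% with cKO above and 9.92% with cKO below.

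**Figure D1:**
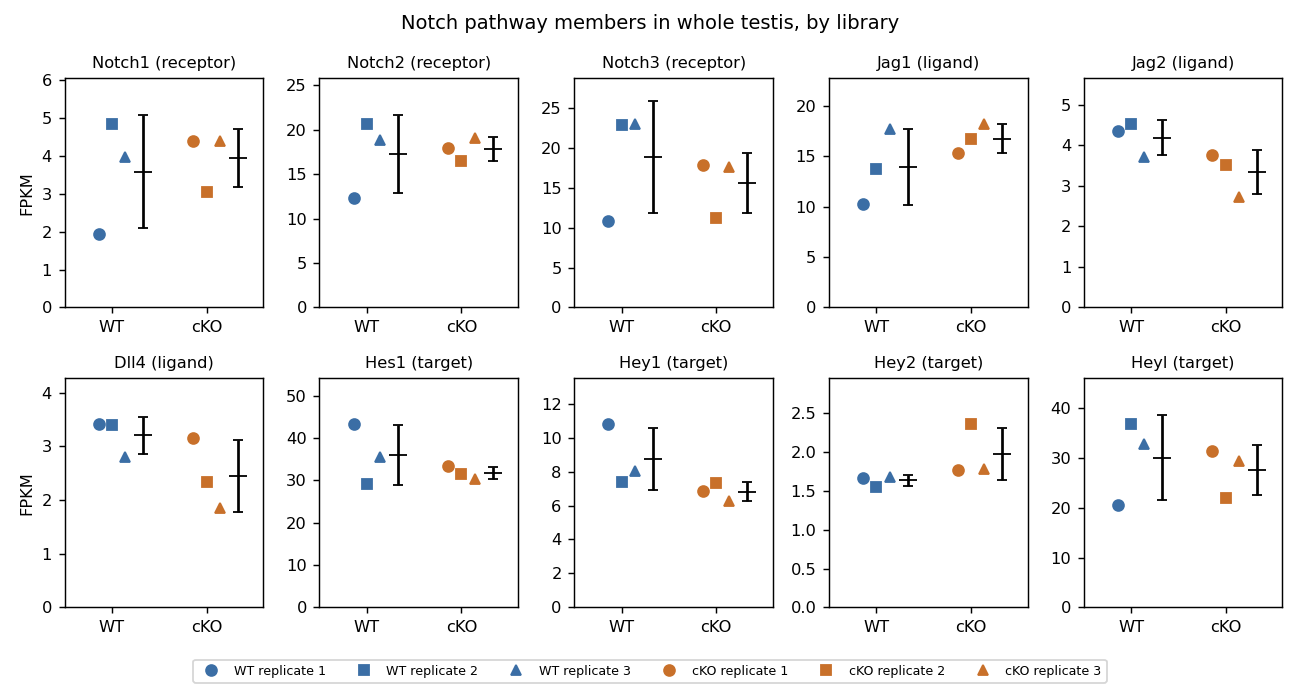
FPKM of each member in each library (circle, square and triangle for replicates 1, 2 and 3), with mean and SD to the right of each group (n = 3). Notch1, Notch2, Notch3, Jag1 and Heyl are lowest in WT replicate 1 (circle). WT and cKO points do not overlap in Hey1 and Hey2, by gaps within counting error.

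Levels per kilobase put Hes1 first and Hey2 last. The means over the 6 libraries were 33.9 FPKM for Hes1, 28.9 for Heyl, 17.6 for Notch2, 17.3 for Notch3, 15.3 for Jag1, 7.77 for Hey1, 3.76 for both Jag2 and Notch1, 2.83 for Dll4 and 1.80 for Hey2. Between neighbours in this order, the ranges over libraries were apart only for Hey1 and Jag2. Heyl exceeded Notch2 in 6 of 6 libraries, although their ranges overlapped across libraries. Notch2 exceeded Notch3 in 3 of 6 libraries and Jag2 exceeded Notch1 in 2 of 6, so the order of neither pair held across libraries.

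Among the receptors, spread within WT was wider than any difference between genotypes. Notch1, a receptor used in many tissues, was at 1.94, 4.83 and 3.97 FPKM in WT and 4.38, 3.05 and 4.38 FPKM in cKO. WT replicate 1 was the lowest of all, and the groups overlapped. The log2 difference was 0.15 (SE 0.26, 95% interval -0.44 to 0.74, limma adjusted p = 0.810). Notch1 runs from 26457903 to 26516663 on the minus strand of chromosome 2 (GRCm38, as for all positions here), and shares exon bases with 0610009E02Rik and Gm13568 on the opposite strand.

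Notch2, also broadly used, was at 12.4, 20.6 and 18.8 FPKM in WT and 17.9, 16.4 and 19.1 FPKM in cKO. Its cKO values lay inside the WT range, and the log2 difference was 0.07 (SE 0.18, 95% interval -0.36 to 0.50, limma adjusted p = 0.887). The gene is on chromosome 3 at 98013527 to 98150361, plus strand, and shares exon bases with Gm42820 on the same strand, so the division of those reads is uncertain. Notch3, known from mural cells, was at 10.8, 22.9 and 23.0 FPKM in WT and 17.9, 11.3 and 17.7 FPKM in cKO. One library of each group, WT replicate 1 and cKO replicate 2, was low.

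For Notch3 the log2 difference was -0.21 (SE 0.30, 95% interval -0.90 to 0.47, limma adjusted p = 0.769), the widest interval of any member. Without WT replicate 1 it was -0.55 (adjusted p = 0.362) and without cKO replicate 2 it was -0.01 (adjusted p = 0.996), and with WT replicate 1 left out the differences of Notch1 and Notch2 changed sign to -0.14 each. Counting noise was small beside this spread. The lowest Notch3 library held 1393 reads, for which the counting SD is 2.68%, while the highest library was 2.12-fold above the lowest. Notch3 lies on chromosome 17 at 32120820 to 32166852, minus strand, and shares exon bases with Gm17276 on the opposite strand.

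The ligands went both ways. Jag1, the ligand known from germ cells, was at 10.2, 13.8 and 17.7 FPKM in WT and 15.3, 16.7 and 18.2 FPKM in cKO. Its highest WT library lay above 2 of the cKO libraries, and the log2 difference was 0.28 (SE 0.19, 95% interval -0.15 to 0.70, limma adjusted p = 0.547). Without WT replicate 1 the difference was 0.09. Jag1 is on chromosome 2 at 137081456 to 137116644, minus strand, and its exons overlap no annotated gene.

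Jag2, a second Jagged ligand, was at 4.34, 4.52 and 3.71 FPKM in WT and 3.76, 3.51 and 2.73 FPKM in cKO. The groups overlapped at WT replicate 3 and cKO replicate 1, and the log2 difference was -0.26 (SE 0.14, 95% interval -0.59 to 0.06, limma adjusted p = 0.462), or -0.16 without cKO replicate 3. Dll4, the Delta ligand of endothelium, was at 3.41, 3.40 and 2.80 FPKM in WT and 3.16, 2.33 and 1.85 FPKM in cKO. cKO replicate 1 lay inside the WT range. The log2 difference of Dll4 was -0.30 (SE 0.17, 95% interval -0.69 to 0.09, limma adjusted p = 0.484), and its libraries held 116 to 220 reads. Without cKO replicate 3 the difference of Dll4 was -0.17.

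Summed FPKM of 13 endothelial markers was 180 to 193 in WT and 153 to 170 in cKO, without overlap. Taken singly, 10 were lower and 3 higher in cKO. The groups did not overlap for 3 of the 13, with cKO below, beside 9.92% of all tested genes. The part of these markers in the Dll4 values was not tested. Jag2 lies on chromosome 12 at 112907819 to 112929776, minus strand, with no exon overlap. Dll4 lies on chromosome 2 at 119325784 to 119335962, plus strand, and shares exon bases with Gm14207 on the opposite strand. The ratio of Jag1 to Jag2 FPKM within a library, chosen after its values were seen, was 2.36, 3.05 and 4.78 in WT and 4.07, 4.75 and 6.67 in cKO. These ratios overlapped between groups.

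Of the targets, Hey1 was lower and Hey2 higher in every cKO library than in any WT library, and neither passed the test. Hey1, a repressor induced by Notch, was at 10.8, 7.37 and 8.00 FPKM in WT and 6.84, 7.35 and 6.25 FPKM in cKO. WT replicate 1 stood well above the rest, and WT replicate 2 and cKO replicate 2 nearly met. These last 2 libraries held 404 and 423 Hey1 reads, so the gap between 7.37 and 7.35 FPKM is within counting error. Group means of 8.72 ± 1.82 FPKM for WT and 6.81 ± 0.551 for cKO (SD, n = 3) put cKO at 78.1% of WT. Its log2 difference was -0.30 (SE 0.15, 95% interval -0.65 to 0.04, limma adjusted p = 0.441), and an exact permutation test (two-sided) gave p = 0.1, the lowest value possible with 3 against 3. Without WT replicate 1 the difference was -0.15. Hey1 lies on chromosome 3 at 8663359 to 8667256, minus strand.

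Hey2, the Hey repressor known from heart and arteries, was at 1.67, 1.56 and 1.68 FPKM in WT and 1.77, 2.36 and 1.79 FPKM in cKO. cKO replicate 2 was high, and the other cKO libraries lay just above WT. Group means were 1.64 ± 0.0695 FPKM for WT and 1.97 ± 0.335 for cKO (SD, n = 3). Its log2 difference was 0.17 (SE 0.15, 95% interval -0.17 to 0.50, limma adjusted p = 0.634), with an exact permutation p (two-sided) of 0.1. Without cKO replicate 2 the difference was 0.08. Each library held 120 to 191 Hey2 reads, and the counting SD of the lowest was 9.13%, so the gap between 1.68 and 1.77 FPKM is within counting error. Hey2 lies on chromosome 10 at 30832359 to 30842801, minus strand.

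Hes1, the best-known Notch target and also a target of other pathways, was at 43.2, 29.1 and 35.6 FPKM in WT and 33.4, 31.5 and 30.4 FPKM in cKO. All cKO values lay inside the WT range, and the log2 difference was -0.16 (SE 0.15, 95% interval -0.51 to 0.20, limma adjusted p = 0.676). It was -0.02 without WT replicate 1 and -0.30 without WT replicate 2. Heyl, the third Hey gene, was at 20.5, 36.8 and 32.9 FPKM in WT and 31.4, 22.0 and 29.5 FPKM in cKO. As in Notch3, WT replicate 1 and cKO replicate 2 were low. The log2 difference of Heyl was -0.09 (SE 0.23, 95% interval -0.62 to 0.44, limma adjusted p = 0.878). Hes1 is on chromosome 16 at 30064384 to 30067796, plus strand, and Heyl on chromosome 4 at 123233556 to 123249875, plus strand. The exons of Hes1, Hey1, Hey2 and Heyl overlap no annotated gene.

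**Figure D2:**
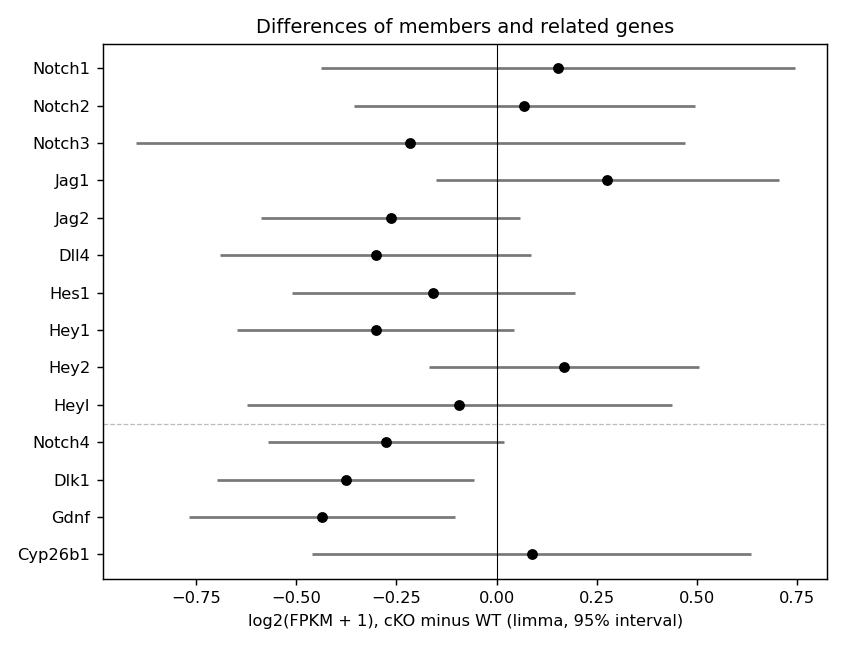
Log2 differences, cKO minus WT, with 95% intervals from limma for the 10 members (above the dashed line) and for Notch4, Dlk1, Gdnf and Cyp26b1 (below). Every member's interval includes 0, and the widest is that of Notch3.

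The lowest and highest libraries differed among the members. WT replicate 1 was the lowest library for 5 members (Notch1, Notch2, Notch3, Jag1 and Heyl) and the highest for 3 (Dll4, Hes1 and Hey1). WT replicate 1 and cKO replicate 2 were the 2 lowest libraries for 4 members, the 3 receptors and Heyl, where 14.1% of all tested genes had that pair lowest; this pair was chosen after the values were seen. Of the 60 other pathway genes tested, described below, 17 had the same pair lowest, from 0 of 5 other receptors and ligands to 9 of 20 nuclear partners and corepressors. Long genes moved with this pattern in WT replicate 1. The 2216 tested genes of at least 8000 bases had a median deviation of -0.22 on the log2 scale there, against 0.05 for shorter genes, while in cKO replicate 2 both medians were close to 0 (-0.01 and 0.00).

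A second difference between libraries followed GC content. The 3674 tested genes with a GC content of at least 55% had a median deviation of 0.07 to 0.14 in WT libraries, 0.02 in cKO replicate 1, and -0.17 and -0.15 in cKO replicates 2 and 3. Of the members, Hey2 (41.9% GC) and Jag1 (48.9%) had the lowest GC content, and the others ranged from 53.2 to 60.5%. The receptors are the longest members, at 14232, 10782 and 8089 bases for Notch1, Notch2 and Notch3.

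With each library's trend on length and GC content removed, 0 members passed and the median of the 10 differences was 0.00. The difference of Hey1 was -0.22 (limma adjusted p = 0.668) and that of Jag1 0.20 (0.775), while Notch3 stood at -0.03, Jag2 at -0.07 and Dll4 at -0.16. Among the targets 3 changed sign, Hes1 to 0.09, Hey2 to -0.03 and Heyl to 0.04. WT replicate 1 remained the lowest library for 5 members on this scale, with Notch3 at -0.50 and Heyl at -0.45 from their means. WT replicate 1 and cKO replicate 2 were the 2 lowest libraries for 2 members there, Notch3 and Heyl, against 4 as measured. The groups overlapped for all 10 members on this scale, Hey1 and Hey2 included.

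**Figure D3:**
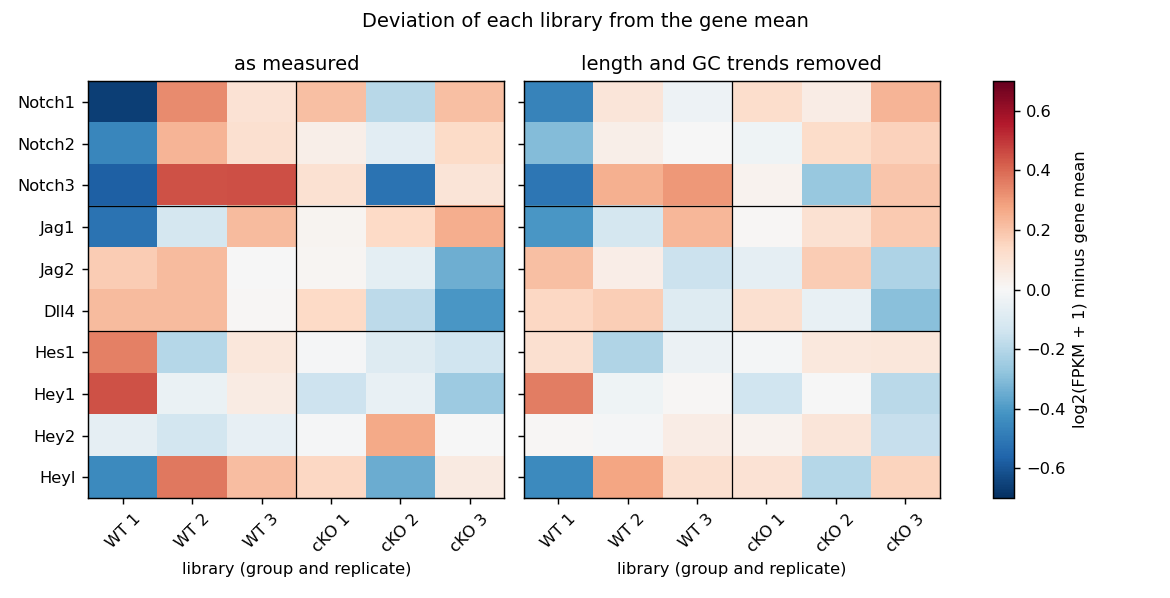
Deviation of each library from the gene's mean over 6 libraries, in log2(FPKM + 1), as measured (left) and with length and GC trends removed (right); horizontal lines part receptors, ligands and targets, and the vertical line parts WT from cKO. WT replicate 1 is low for the receptors, Jag1 and Heyl on both scales, at -0.57 for Notch3 as measured and -0.50 after removal.

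Genes whose profile over the 6 libraries was most like that of the leading member of each role were listed by the root mean square difference of their deviations, in log2 units. For Notch2, the receptor with the highest mean over the 6 libraries (17.6 against 17.3 FPKM for Notch3), they were Kdm3b (0.03), Trrap (0.03) and Srl (0.03), for Jag1 they were Megf10 (0.03), Ust (0.04) and Prkar2b (0.06), and for Hes1 they included Kti12 (0.03) and Emc4 (0.04). Nothing beyond likeness over 6 libraries follows from these values.

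Gdnf and Cyp26b1, which HES and HEY repressors are known to restrain, were both tested, and neither passed. Gdnf was at 8.76, 9.45 and 10.4 FPKM in WT and 8.15, 5.62 and 6.77 FPKM in cKO. Every cKO value lay below every WT value, with cKO replicate 1 closest to WT, and the mean in cKO was 71.7% of that in WT. Its log2 difference was -0.44 (SE 0.14, 95% interval -0.77 to -0.10), and it did not pass over all genes (limma adjusted p = 0.379). With length and GC trends removed the difference of Gdnf was -0.44 as well. Cyp26b1 was at 10.1, 15.7 and 21.5 FPKM in WT and 17.2, 14.4 and 16.9 FPKM in cKO. Its cKO values lay inside the WT range, and the log2 difference was 0.09 (SE 0.24, 95% interval -0.46 to 0.64, limma adjusted p = 0.889), or -0.18 without WT replicate 1.

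Gfra1 and Ret, which encode the receptor of GDNF on stem spermatogonia, had a mean under 1 FPKM and were not tested. Gfra1 was at 0.459, 0.838 and 0.437 FPKM in WT and 1.10, 0.746 and 0.772 FPKM in cKO, and Ret at 0.818, 0.854 and 0.707 FPKM in WT and 1.02, 0.839 and 0.426 FPKM in cKO. Both overlapped between groups. Summed FPKM of 17 Sertoli markers was 1845 to 2369 in WT and 1358 to 1578 in cKO, without overlap. That of 14 germ cell markers overlapped, at 263 to 506 in WT and 321 to 477 in cKO. Taken singly, 15 Sertoli markers were lower and 2 higher in cKO, and groups did not overlap for 8, all with cKO below. Of the 12 germ cell markers tested, 10 were higher and 2 lower, and groups did not overlap for 3, all with cKO above. Among all tested genes 9.92% had cKO below and 8.69% cKO above without overlap. The part of these markers in the values of Hey1, Gdnf and the other genes was not tested.

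Of 68 other pathway genes listed by role, 60 were tested and 0 passed in either direction. At an unadjusted p under 0.05, 9 were lower and 0 higher, 9 of 60 beside 7.68% lower and 4.65% higher among all tested genes. With length and GC trends removed 3 were lower and 2 higher, beside 5.05% and 3.22% of all genes. Without 1 of the libraries 3 to 10 were lower, beside 3.35 to 10.3% of all genes. The count was 3 without cKO replicate 3 (3.35% of all genes). It was 5 without WT replicate 3 (4.39%) or cKO replicate 2 (3.72%). The median log2 difference of the 60 was 0.00. The groups did not overlap for 12 of the 60, 10 lower and 2 higher, beside 18.6% of all tested genes.

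Of 9 receptors and ligands outside the 10, 5 were tested. All 5 had a negative log2 difference as measured (median -0.29), and the groups of 4 did not overlap, with cKO below. Of all 14238 tested genes, 7004 were negative and 9.92% had cKO below without overlap. The median of this list with length and GC trends removed was not computed. Dll3, Dlk2, Dner and Mfap5 averaged under 1 FPKM and were not tested. Of these, Dner, a neuronal Notch-binding protein gene, is outside the rule for naming genes. It was at 0.368, 0.635 and 0.705 FPKM in WT and 1.21, 1.19 and 0.756 FPKM in cKO. Each cKO value lay above each WT value, but WT replicate 3 (55 reads) and cKO replicate 3 (59 reads) differed within counting error. Hes7, another untested gene outside that rule, lay the other way. Its values were 0.973, 0.922 and 1.05 FPKM in WT and 0.680, 0.220 and 0.406 FPKM in cKO. These rest on 28, 28 and 31 reads in WT and 21, 7 and 12 in cKO, with a counting SD of 37.8% for the lowest. Hes7 also shares exon bases with 9130213A22Rik on the opposite strand. Notch4, the endothelial receptor, was at 3.07, 2.72 and 2.99 FPKM in WT and 2.43, 2.32 and 1.98 FPKM in cKO. Each cKO value lay below each WT value, where the log2 difference was -0.28 (SE 0.13, 95% interval -0.57 to 0.02, limma adjusted p = 0.418), which was -0.07 with length and GC trends removed.

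Dlk1, a Delta-like protein that lacks the receptor-binding part of the classical ligands, averaged 158 FPKM over the 6 libraries. Of the other pathway genes listed, Mfap2 (220 FPKM) and Nedd4 (162 FPKM), both outside the rule for naming genes, averaged more. Dlk1 was at 202, 169 and 165 FPKM in WT and 149, 132 and 130 FPKM in cKO, and the groups did not overlap. The log2 difference of Dlk1 was -0.38 (SE 0.14, limma adjusted p = 0.380), or -0.23 with length and GC trends removed. Egfl7 encodes a secreted endothelial protein known to bind Notch receptors. It was at 18.2, 11.7 and 11.5 FPKM in WT and 9.59, 8.54 and 7.43 FPKM in cKO. Its log2 difference was -0.61 (limma adjusted p = 0.372), or -0.43 with length and GC trends removed. Egfl7 shares exon bases with Agpat2 and Gm20532, so its reads are uncertain.

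Of the enzymes that add sugars to Notch receptors, 4 of 5 were negative as measured, with a median of -0.28. Among all tested genes 7004 of 14238 were negative. The median of these enzymes with length and GC trends removed was not computed. Lfng, the Lunatic fringe glycosyltransferase that alters which ligand a receptor answers, was at 16.0, 14.0 and 15.0 FPKM in WT and 11.9, 10.2 and 11.6 FPKM in cKO. The groups did not overlap, and the log2 difference was -0.39 (SE 0.11, 95% interval -0.65 to -0.13, limma adjusted p = 0.372), or -0.14 with length and GC trends removed. Mfng, the Manic fringe gene, was at 5.94, 5.39 and 6.44 FPKM in WT and 4.56, 5.20 and 4.06 FPKM in cKO (log2 difference -0.31, adjusted p = 0.396, or -0.14 with those trends removed).

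Genes of receptor cleavage went both ways, with 6 of 10 positive and a median of 0.06. Groups did not overlap for 0 of the 10, beside 18.6% of all tested genes. Trafficking and turnover genes had 7 of 13 negative and a median of -0.15. Groups did not overlap for 3 of these 13, with cKO below, beside 9.92% of all tested genes. Among the 13, Dtx1 encodes a Deltex ubiquitin ligase that binds Notch. Dtx1 was at 9.78, 12.9 and 12.4 FPKM in WT and 8.65, 6.01 and 7.31 FPKM in cKO. Its groups did not overlap, and its log2 difference of -0.61 (SE 0.16, 95% interval -0.98 to -0.25) had the lowest p of the 60 genes (limma adjusted p = 0.361). Dtx1 stood at -0.42 with length and GC trends removed (adjusted p = 0.486). Dtx3, a related gene, was at 35.5, 32.0 and 42.1 FPKM in WT and 29.5, 27.3 and 26.2 FPKM in cKO (log2 difference -0.38, adjusted p = 0.379, or -0.17 with those trends removed).

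The nuclear complex and its corepressors had 13 of 20 positive differences and a median of 0.05. Kdm5a, a histone demethylase that binds RBPJ, was at 6.27, 8.47 and 8.53 FPKM in WT and 8.54, 9.93 and 11.2 FPKM in cKO (log2 difference 0.32, limma adjusted p = 0.424, or 0.12 with length and GC trends removed). WT replicate 3 and cKO replicate 1 nearly met. Fhl1 is a LIM protein gene with a form that binds RBPJ. It was at 18.1, 17.5 and 17.1 FPKM in WT and 19.0, 24.0 and 20.0 FPKM in cKO. Its log2 difference was 0.24 (limma adjusted p = 0.442), or 0.23 with length and GC trends removed. Rbpj itself, the DNA-binding centre of the pathway and outside the rule for naming genes, was at 6.01, 8.03 and 6.46 FPKM in WT and 6.77, 8.31 and 8.27 FPKM in cKO. Its groups overlapped (limma adjusted p = 0.618).

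Other Hes genes and targets had 4 of 7 tested genes positive and a median of 0.01. Id1, a helix-loop-helix inhibitor better known as a BMP target, was at 78.9, 42.0 and 51.3 FPKM in WT and 39.4, 34.1 and 31.4 FPKM in cKO. The groups did not overlap, and WT replicate 1 stood apart. Id1 differed by -0.66 on the log2 scale (SE 0.22, limma adjusted p = 0.379), or by -0.41 without WT replicate 1. With length and GC trends removed the difference of Id1 was -0.46. Hes5, another Hes target and outside the rule for naming genes, was at 3.32, 3.32 and 2.07 FPKM in WT and 3.74, 3.83 and 2.43 FPKM in cKO, with overlap (limma adjusted p = 0.758).

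**Figure D4:**
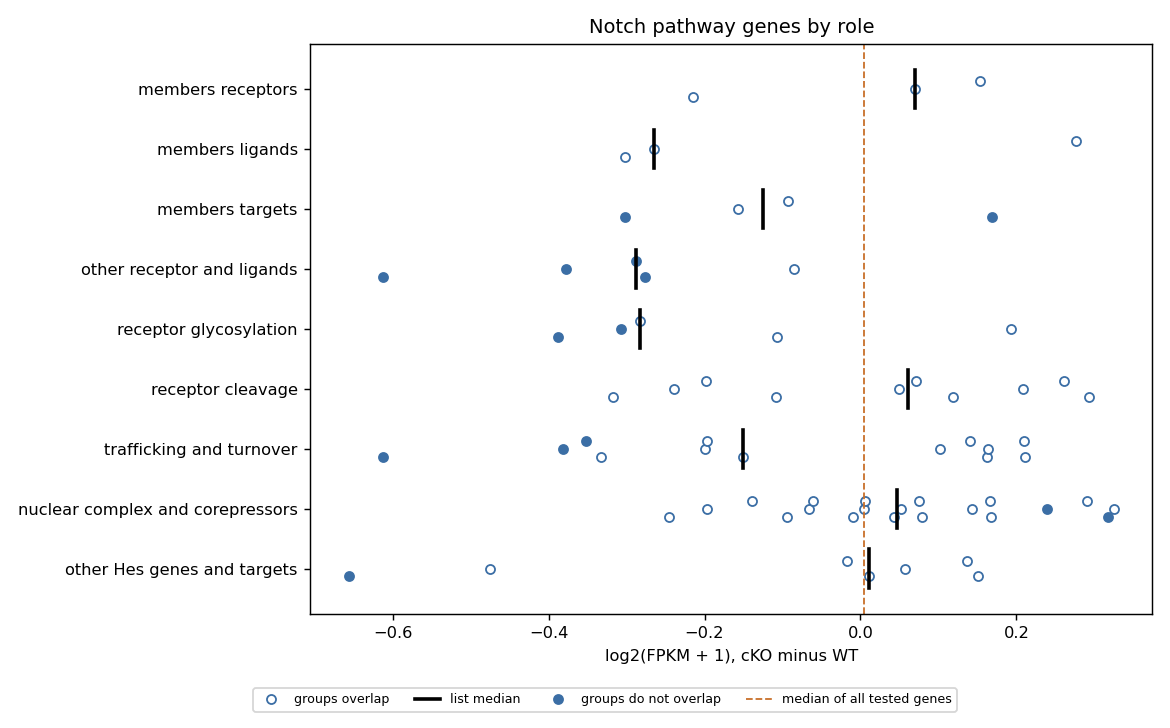
Log2 differences, cKO minus WT, of the tested members and other pathway genes by role; filled points mark genes whose groups do not overlap, black bars the list medians, and the dashed line the median of all 14238 tested genes (0.00). As measured, the tested receptors and ligands outside the 10 and the sugar-adding enzymes lie mostly on the lower side. Their medians are -0.29 and -0.28. Length and GC trends are not removed here, and 0 genes passed the test.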

How the data were processed

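Whole-testis RNA was extracted with Trizol and libraries made with a SMARTER mRNA-Seq kit, per the labels' protocols. The authors deposited FPKM values per gene. The submitters' processing notes name GRCm38 and mm10; aligner, counter, annotation release and strandedness are not stated there. FPKM times gene length, divided by 1 constant for each library, came out as whole reads for 100% of values (tolerance 0.01). Counting error alone is covered by statements made from reads, and genes that share exon bases are uncertain.

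Differences, cKO minus WT, were tested with limma 3.58.1 in R 4.3.3 (trended prior variance) on log2(FPKM + 1), for 14238 genes averaging at least 1 FPKM, with Benjamini-Hochberg adjustment over all tested genes and a threshold of 0.05. On this scale changes of low genes are understated. Single values were compared by exact two-sided permutation over samples. Positions come from GENCODE M21 on GRCm38 by gene identifier, and GC content from its transcripts (97.9% of tested genes). GC and length trends were natural splines with 5 degrees of freedom. The procedure was tested on simulated data with changes larger than any difference of the members. That test therefore does not show how often changes of the members' size would be found.

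Members and lists were chosen with earlier results of these data known. Named genes were the members, Srsf2, Gdnf, Cyp26b1, Gfra1, Ret, Notch4, Dlk1, and per list of other pathway genes up to 2 with the lowest p whose groups did not overlap. Listed beside them were markers of 7 cell types. Alternatives were other pseudocounts (0.1, 0.5), no filter or at least 5 FPKM on average, TPM, median-of-ratios and rescaled values, limma without trend, voom on reads (at least 10 in at least 3 libraries), a replicate block, trend removal, and leaving out each library. Trend removal with the block was added after the data were seen. Splicing is not analysed here. One gene of the likeness lists is not reported here.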

Additional observations from a re-analysis of the deposited data

How the results depend on the processing

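Over 18 other settings, 0 of 176 member values passed the threshold and 166 kept their direction. Those that did not were Hes1 (0.093), Hey2 (-0.033) and Heyl (0.039) with length and GC trends removed, with the same values when the replicate block was added, and some with a library left out. Leaving out each library gave -0.14 to 0.36 for Notch1, -0.14 to 0.21 for Notch2, -0.34 to 0.069 for Heyl and -0.18 to 0.33 for Cyp26b1. The counts of members and of other pathway genes past the threshold were 0 in every setting. Among all genes, the count of higher genes (1) was 0 with pseudocounts of 0.1 or 0.5, with no filter, with a mean of at least 5 FPKM and with median-of-ratios scaling, and 2 with length and GC trends removed. The count of lower genes (1) was 0 with no filter and with voom. Both counts were 0 to 0 over the fits without each library. With the replicate block both were 0, also with length and GC trends removed. Same-numbered libraries had correlations of 0.09, -0.33 and 0.39 in their deviations from group means. WT replicate 1 correlated best with cKO replicate 2 (0.35), and the highest value (0.39) was that of WT replicate 3 with cKO replicate 3. Deviations within a group of 3 sum to 0, so these correlations cannot show whether the numbers pair the samples. A mean of at least 5 FPKM left Notch1, Jag2, Dll4, Hey2 and Notch4 untested. The causes were not tested.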
